A study of Rattus norvegicus with 4 samples.

Results

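Acute phase plasma proteins are secreted by the liver in changed amounts during injury, infection or surgery. The 10 genes described here are Lcn2, Orm1, Lbp, Crp, Serpina3n, Saa4, Apcs, Itih3, Itih4 and Cp, found by their symbols among the 31457 genes of the deposited table, and all 10 passed the filter on low levels that kept 9553 genes. The livers came from Lewis rats (allotype RT1L), and poly(A) RNA of 4 livers was sequenced, with 1 library in each of 4 groups. A miR-27b liver and a siRNC liver came from rats given intravenous cells labelled ASCs-miR27b or ASCs-siRNC after partial hepatectomy, an operation that takes out a portion of the liver and leaves a remnant that regrows. A saline liver came from a hepatectomised rat given saline by the same route, and a naive liver served as the control without these treatments. The labels give neither the source of the ASCs, nor the meaning of siRNC, nor the time between surgery and collection. As each group holds a single library, without replicates, conditions were not tested against each other, and the size of each difference is given instead.

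The acute phase response is set off by cytokines, chiefly IL-6, IL-1 and their relatives, which act on hepatocytes. IL-6 receptors signal through the transcription factor STAT3, IL-1 receptors through NF-kB, and C/EBP factors act with both at the promoters of the response genes. Positive acute phase proteins increase in plasma, and negative ones, such as albumin and transthyretin, decrease. Species differ in which proteins respond most: alpha-2-macroglobulin is a major acute phase protein of the rat, whereas rat C-reactive protein is abundant in plasma before any injury.

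All 10 genes were highest in the miR-27b liver, where 24.9% of the 9553 kept genes were highest. Lcn2 differed most, with 18.4-fold more normalized reads in the miR-27b than in the siRNC liver, and Orm1, Lbp and Serpina3n were 2.24-, 2.20- and 2.04-fold higher there. The other 6 genes were 1.23- to 1.52-fold higher in the miR-27b than in the siRNC liver. The naive liver was the lowest of the 4 for 9 genes, against 29.7% of kept genes, and for Apcs the siRNC liver was. The miR-27b liver was highest and the naive liver lowest for 9 of 10 members, against 13.4% of the 9553 kept genes.

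The cells of the miR-27b group are named after a microRNA, and both arms of the rat hairpin in RefSeq (build GRCr8) are shown here to make that label concrete, with the seed, bases 2 to 8, in capitals. The labels do not say which arm was meant.
rno-miR-27b-3p: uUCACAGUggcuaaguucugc
rno-miR-27b-5p: aGAGCUUAgcugauuggugaacag

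Sequence upstream of the annotated start was taken from RefSeq (GRCr8) for 8 of the 10 genes, without Lbp and Saa4. The 250 bases before each start were searched on both strands for 5 motifs of factors of the response: CTGGGAA, a short STAT3 element of acute phase genes, TTCNNNGAA, the spaced STAT3 palindrome, TTGCNNAA for C/EBP, the NF-kB consensus of the kappa-B site, and the TATA box TATAAA. The short STAT3 element was found before Lcn2, Serpina3n, Apcs and Itih4 (4 of 8), against 9.56% of 33469 rat promoters of the same length. The spaced palindrome was found before Serpina3n and Itih4 (2 of 8, against 7.67%), in both as TTCCCAGAA, which also holds the short element. The C/EBP motif lay before Lcn2, Orm1, Itih4 and Cp (4 of 8, against 9.22%), and the NF-kB consensus before Lcn2 alone (1 of 8, against 3.54%). A looser NF-kB pattern of the same length was searched first and was replaced by the consensus after its result was seen: it lay before Lcn2, Orm1 and Serpina3n (3 of 8, against 16.4%). The TATA box lay before Orm1, Itih3, Itih4 and Cp (4 of 8, against 12.9%). The window of Cp lay wholly inside the annotated gene, and that of Itih3 did except for 15 bases. The motifs found for Cp and Itih3 are thus upstream of the start used but within the annotated gene. None of the 5 was found in these letters before Crp.

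Of these windows, 5 are printed so that genes of different response can be set side by side. Lcn2, Orm1 and Serpina3n had the largest differences between the miR-27b and siRNC livers among genes with a window, Itih4 had a smaller one (0.54) and holds 4 of the 5 motifs, and Apcs had the smallest range over the 4 libraries. Capitals mark the motifs. Only bases before the annotated gene are given, which leaves 179 bases for Lcn2 and 250 for the others. The positions in GRCr8 are chr3:36081852-36082030, minus strand for Lcn2, chr5:81788259-81788508, plus strand for Orm1, chr6:129088142-129088391, plus strand for Serpina3n, chr16:6086735-6086984, plus strand for Itih4 and chr13:87906509-87906758, minus strand for Apcs. In Lcn2 the STAT3 element and the NF-kB consensus overlap, and Apcs, the least variable gene, holds the short STAT3 element at 2 places.
Lcn2: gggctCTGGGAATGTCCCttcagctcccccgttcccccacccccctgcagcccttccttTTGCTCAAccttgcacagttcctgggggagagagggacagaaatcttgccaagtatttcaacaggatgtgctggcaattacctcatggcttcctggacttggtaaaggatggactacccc
Orm1: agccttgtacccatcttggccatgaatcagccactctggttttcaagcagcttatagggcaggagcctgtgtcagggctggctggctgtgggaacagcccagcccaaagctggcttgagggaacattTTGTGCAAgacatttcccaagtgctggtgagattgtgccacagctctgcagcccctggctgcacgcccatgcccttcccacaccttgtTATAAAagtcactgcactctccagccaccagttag
Serpina3n: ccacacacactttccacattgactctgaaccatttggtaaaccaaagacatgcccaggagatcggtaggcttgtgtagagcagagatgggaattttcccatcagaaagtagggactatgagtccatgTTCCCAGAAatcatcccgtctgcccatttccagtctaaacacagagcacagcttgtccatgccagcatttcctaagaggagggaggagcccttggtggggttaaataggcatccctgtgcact
Itih4: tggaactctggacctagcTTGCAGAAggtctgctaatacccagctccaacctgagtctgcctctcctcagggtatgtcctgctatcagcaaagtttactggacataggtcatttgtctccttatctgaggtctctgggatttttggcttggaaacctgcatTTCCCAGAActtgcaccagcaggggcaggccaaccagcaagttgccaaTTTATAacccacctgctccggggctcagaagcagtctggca
Apcs: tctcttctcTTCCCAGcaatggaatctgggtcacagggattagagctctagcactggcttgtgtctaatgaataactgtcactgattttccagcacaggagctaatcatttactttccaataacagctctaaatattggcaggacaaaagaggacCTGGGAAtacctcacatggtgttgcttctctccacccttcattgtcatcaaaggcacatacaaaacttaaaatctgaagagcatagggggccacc

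The deposited values are log2 of normalized reads minus a baseline for each gene, close to the median of the 4 libraries. They therefore compare libraries within a gene, and for the members 0 is the baseline and not an absence of reads. A gene at 0 in all 4 libraries was instead treated as one without a value. Levels of different genes cannot be compared on this scale. In 1 bulk library per liver, fewer cells of a type and less RNA per cell cannot be told apart.

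**Figure D1:**
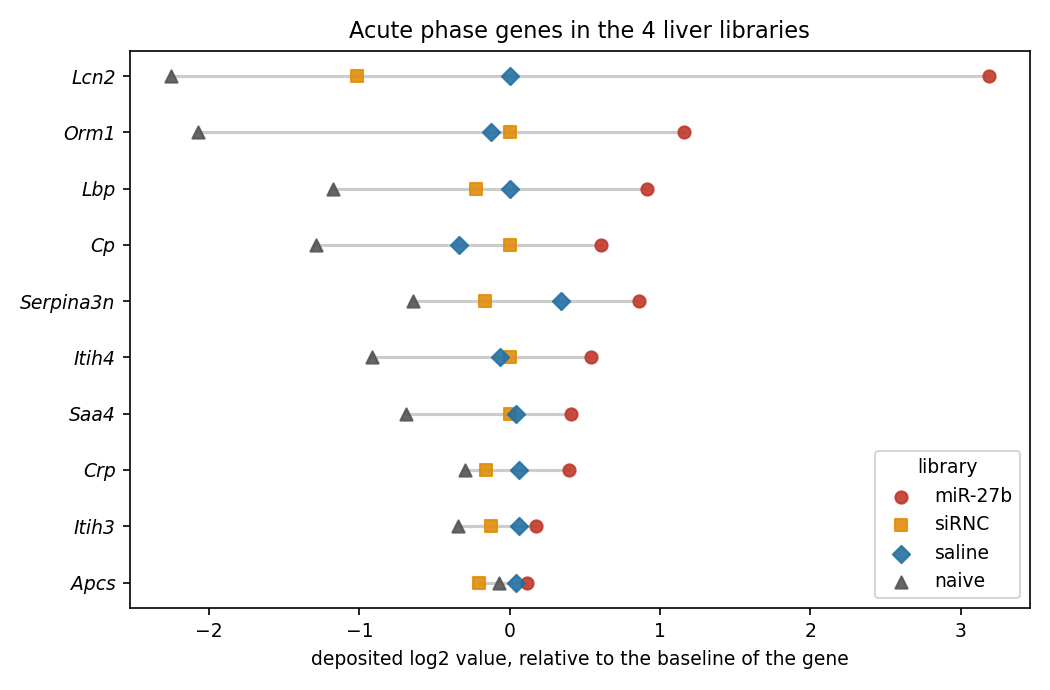
Deposited log2 value, relative to each gene's own baseline, of the 10 acute phase genes (rows, sorted by their range) in the miR-27b, siRNC, saline and naive libraries (1 point per library, no replicates). The miR-27b point is the rightmost in all 10 rows, and the range runs from 0.32 for Apcs to 5.44 for Lcn2.

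Lcn2 (gene ID 170496) encodes lipocalin 2, which binds bacterial siderophores and so keeps iron from microbes. Its deposited values were 3.19 in the miR-27b, -1.01 in the siRNC, 0 in the saline and -2.25 in the naive library. The read numbers behind these values could be recovered from their steps (posterior above 0.9): 594.67, 34, 71 and 14 reads in the miR-27b, siRNC, saline and naive libraries. After normalization these are 622 (95% Poisson interval 573 to 674), 33.8 (23.4 to 47.3), 68.3 (53.4 to 86.2) and 14.3 (7.83 to 24.0) reads, in the same order. The miR-27b library thus lay far above the other 3, and no interval overlapped another except at the edge between siRNC and naive, where the naive interval reached 24.0 and the siRNC interval began at 23.4.

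The log2 difference of Lcn2 was 4.20 between the miR-27b and siRNC livers, with an exact conditional binomial 95% interval of 3.70 to 4.75. It was 3.19 (2.83 to 3.56) between the miR-27b and saline livers and 5.44 (4.68 to 6.32) between the miR-27b and naive livers. Only 1 kept gene had a higher miR-27b to siRNC difference, so that Lcn2 had rank 2 of 9553. Between the siRNC and saline livers Lcn2 differed by -1.01 (-1.65 to -0.41), the one member at least 2-fold lower in any of the 6 comparisons. With a pseudocount of 5 it was at -0.92 and no longer 2-fold lower. The saline liver exceeded the naive liver by 2.25 (1.41 to 3.20). These intervals, and the Poisson intervals above, cover counting error only and not differences between animals.

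**Figure D2:**
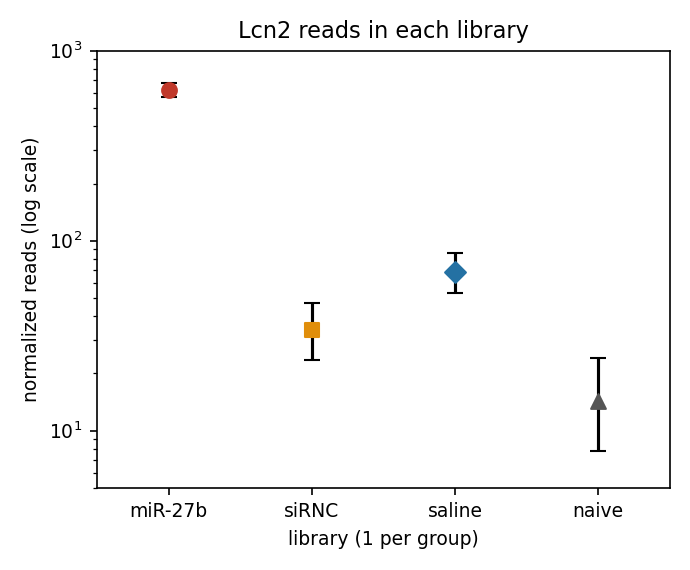
Normalized Lcn2 reads (log scale) in the miR-27b, siRNC, saline and naive libraries, 1 library per group. Points are the values (622, 33.8, 68.3 and 14.3) and bars are 95% Poisson intervals for counting error only.

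Lcn2 is also a product of neutrophils, and markers of these cells were examined beside it. Of 14 neutrophil markers, 7 (Mpo, Elane, Camp, Ngp, Ltf, Prtn3 and Cd177) were listed at 0 in all 4 libraries and 2 passed the filter. Of all 31457 genes, 18583 were at 0 in all libraries. S100a9, a calcium-binding protein of neutrophils and monocytes, was higher in the miR-27b than in the siRNC, saline and naive livers by 1.23, 2.40 and 5.19 on the log2 scale. Itgam, an integrin of myeloid cells, was higher in the miR-27b than in the same 3 livers by 0.57, 0.11 and 1.80. The other 5 (S100a8, Cxcr2, Csf3r, Mmp8 and Mmp9) did not pass the filter, and were above the siRNC liver in the miR-27b liver by 0.05 for Csf3r to 2.25 for Mmp8. The products of Ltf and Camp share granules with lipocalin 2 in neutrophils, but at 0 in all 4 libraries neither gene could be compared between the livers. Between the siRNC and saline livers, where Lcn2 differed by -1.01, S100a9 differed by 1.17 and Itgam by -0.46. Of the markers below the filter, Cxcr2, Csf3r, Mmp8 and Mmp9 differed there by 1.99, 0.84, 1.58 and 1.58 and S100a8 by -0.13. For Cxcr2, Mmp8 and Mmp9 the saline and naive values were the same (-0.92, 0 and -0.92), at the floor of the values. No direction is therefore read from the markers below the filter. The part of these cells in the Lcn2 difference was not tested.

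Orm1 (gene ID 24614) encodes alpha-1-acid glycoprotein, a lipocalin that binds drugs and steroids in plasma. Its values were 1.16 in the miR-27b, 0 in the siRNC, -0.13 in the saline and -2.08 in the naive library. The 3 hepatectomised livers were thus all well above the naive one, and the siRNC and saline livers differed by only 0.13. Against the naive liver Orm1 was 9.44-fold higher in the miR-27b, 4.22-fold in the siRNC and 3.86-fold in the saline liver. It was the only member besides Lcn2 that was at least 2-fold higher in the miR-27b than in the saline liver, at 2.44-fold.

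Lbp (gene ID 29469) encodes lipopolysaccharide-binding protein, which hands bacterial endotoxin to CD14. Its values were 0.91 in the miR-27b, -0.23 in the siRNC, 0 in the saline and -1.17 in the naive library. The miR-27b liver was 2.20-fold above the siRNC, 1.88-fold above the saline and 4.25-fold above the naive liver. Cd14 itself, the receptor that takes the endotoxin over, did not follow the same order, with log2 differences of 0.27, -0.41 and -0.28 of the miR-27b from the siRNC, saline and naive livers.

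For Orm1, Lbp and the 7 genes that follow, single reads could not be recovered, and the rounding of the stored values placed the baseline of each at a log2 level of 8 or more (log2 of normalized reads), with a probability of at least 0.94. Counting error at a log2 level of 8 in both libraries gives a log2 difference an SD of 0.13, so it is at most about that for these genes near their baseline. Differences between animals come on top and are unknown here.

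The pentraxins are ring-shaped proteins of identical subunits that bind to damaged cells and microbes, and both members lie side by side on rat chromosome 13. Crp (gene ID 25419), C-reactive protein, had values of 0.39 in the miR-27b, -0.16 in the siRNC, 0.06 in the saline and -0.29 in the naive library. Apcs (gene ID 29339), serum amyloid P component and a major acute phase protein of the mouse, had values of 0.12, -0.20, 0.04 and -0.07 in the same order. Both varied little: Crp was 1.61-fold and Apcs 1.14-fold higher in the miR-27b than in the naive liver. Apcs was the one member below its naive value in any hepatectomised liver, with a log2 difference of -0.13 between the siRNC and naive livers.

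Serpina3n (gene ID 24795) encodes a secreted serine protease inhibitor of the antichymotrypsin family. Its values were 0.86 in the miR-27b, -0.17 in the siRNC, 0.34 in the saline and -0.64 in the naive library. It was 2.04-fold higher in the miR-27b than in the siRNC liver, and 2.84-fold higher in the miR-27b than in the naive liver. The siRNC liver lay below the saline liver by 0.51, the widest gap between those livers after Lcn2. Rats have several close copies of this gene, so reads may be shared among them. Serpina3k and Serpina3m, which were also measured, differed from the naive liver by -0.0023 and -0.29 in the miR-27b liver, and so did not stand above it as Serpina3n did.

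Itih3 and Itih4 encode heavy chains of the inter-alpha-trypsin inhibitor family, which are secreted by hepatocytes. They are neighbours on rat chromosome 16, next to Itih1. Itih4 (gene ID 54404) had values of 0.54 in the miR-27b, 0 in the siRNC, -0.06 in the saline and -0.92 in the naive library. Itih3 (gene ID 50693) had values of 0.17, -0.13, 0.06 and -0.34 in the same order. The 3 neighbours therefore differed in size: the miR-27b liver exceeded the naive liver by 1.46 for Itih4, 0.51 for Itih3 and 0.03 for Itih1 on the log2 scale.

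Saa4 (gene ID 365245) encodes the constitutive serum amyloid A of high-density lipoprotein. Its values were 0.41 in the miR-27b, 0 in the siRNC, 0.04 in the saline and -0.69 in the naive library. The siRNC and saline livers differed by 0.04, below 0.13, the approximate upper limit of the counting SD, which may itself be smaller. The miR-27b liver was 2.15-fold above the naive liver and 1.33-fold above the siRNC liver. Cp (gene ID 24268) encodes ceruloplasmin, the copper-carrying ferroxidase of plasma. It had values of 0.61 in the miR-27b, 0 in the siRNC, -0.34 in the saline and -1.29 in the naive library. Cp was the member with the widest excess of the siRNC over the saline liver, at 0.34, and was 3.71-fold higher in the miR-27b than in the naive liver.

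Across the members, the miR-27b liver exceeded the siRNC liver for 10 of 10 genes, with 4 at least 2-fold higher and a median log2 difference of 0.58. Of all kept genes, 2.94% were at least 2-fold higher, 50.5% were above 0, and the median was 0.0035. From the saline liver the miR-27b liver differed by 0.07 for Apcs to 3.19 for Lcn2, with a median of 0.56, and 2 members were at least 2-fold higher, against 2.54% of kept genes. Both comparisons use the same miR-27b library, and its own deviation enters both.

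The siRNC liver was below the saline liver for 7 of 10 members, against 50.8% of kept genes, with a median of -0.20. None was at least 2-fold higher, against 2.40% of kept genes, and only Lcn2 was at least 2-fold lower, against 1.77%, though not with a pseudocount of 5 (-0.92). Orm1, Itih4 and Cp were the 3 genes higher in the siRNC than in the saline liver. For 3 members, Orm1, Saa4 and Itih4, these livers differed by less than 0.13, the approximate upper limit of their counting SD. Their own counting SD was not known and may be smaller. The share of kept genes this close was not computed, so this count cannot be set against a background. The order miR-27b, saline, siRNC, naive from high to low was found for 6 members, against 7.17% of kept genes.

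**Figure D3:**
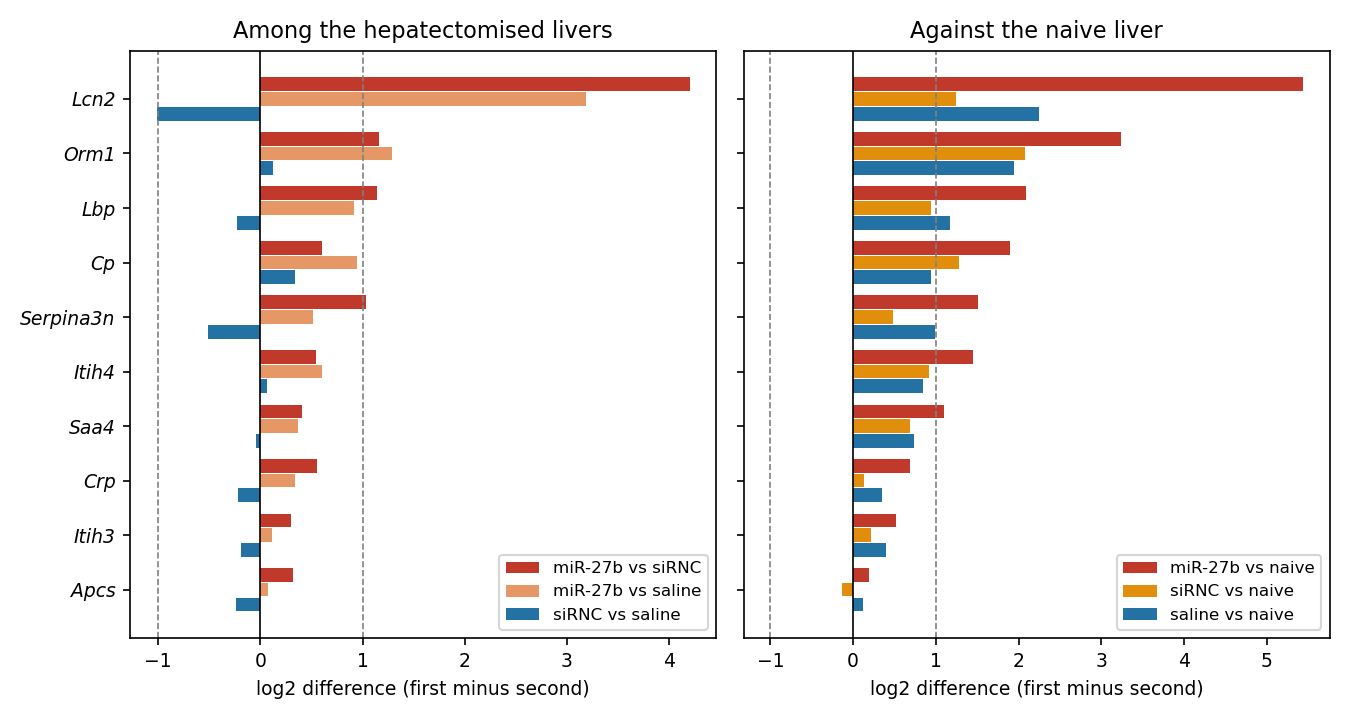
Log2 differences of the 10 members (rows) among the 3 hepatectomised livers (left panel) and of each hepatectomised liver from the naive liver (right panel), with dashed lines at a 2-fold difference and 1 library per group. The miR-27b bars are above 0 for every member in both panels, whereas the siRNC against saline bars lie on either side of 0.

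Against the naive liver, 7 of 10 members were at least 2-fold higher in the miR-27b liver, 3 in the siRNC liver and 3 in the saline liver. The shares of kept genes at least 2-fold higher were 8.35% for the miR-27b, 6.08% for the siRNC and 5.89% for the saline liver. The medians of the members were 1.48, 0.80 and 0.90 in these livers, where the medians of all kept genes were -0.03, -0.01 and -0.01. Lcn2 and Orm1 were at least 2-fold higher in all 3 livers. The third gene past 2-fold was Cp in the siRNC liver and Lbp in the saline liver, where Serpina3n lay just short at 1.98-fold. Crp, Apcs and Itih3 were below 2-fold in all 3 livers. All 3 comparisons use the same naive library.

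The miR-27b against siRNC and the saline against naive comparisons have no library in common. Over the 10 members, genes with a larger saline to naive difference also had a larger miR-27b to siRNC difference, with Pearson's r of 0.81 and Spearman's rho of 0.90. Without Lcn2 and Orm1, the 2 members farthest from the median of the saline to naive difference, r was 0.79 and rho 0.81. Over all 9553 kept genes r was 0.17. These values run across genes, which are not independent replicates, and describe these 4 libraries. The members were chosen with earlier results of these data known, so the correlations over them are not independent support.

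**Figure D4:**
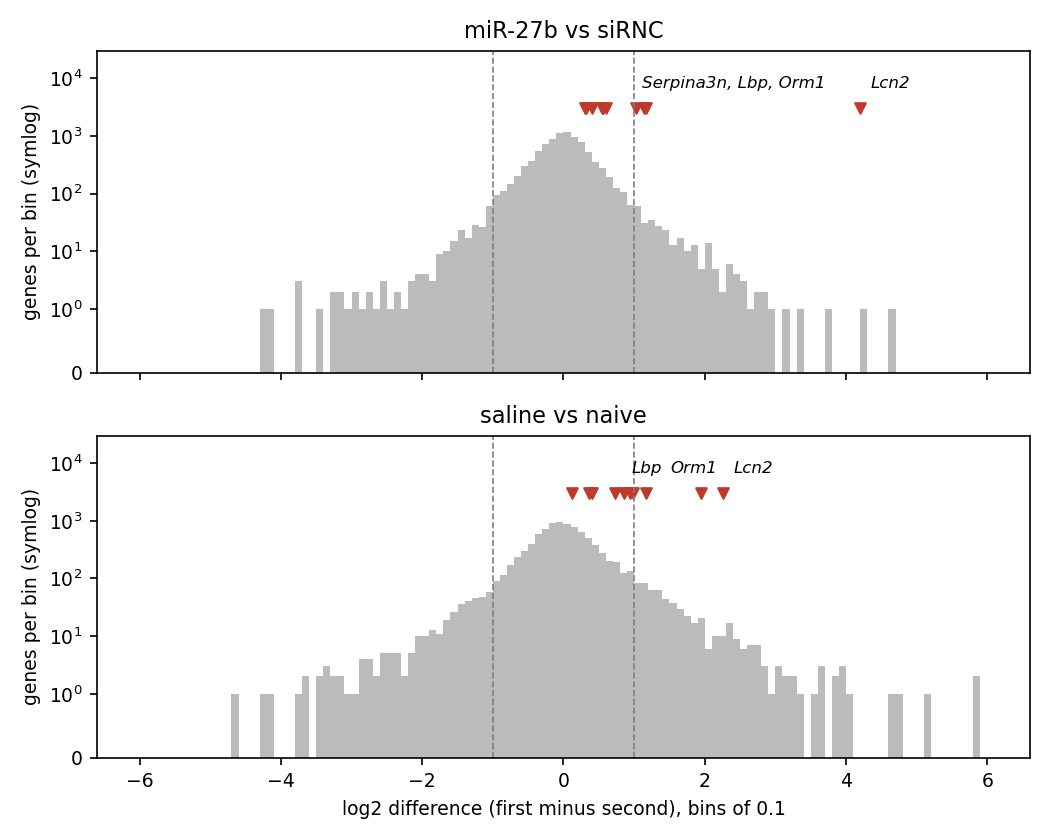
Number of kept genes (symlog scale) by log2 difference in bins of 0.1 for the miR-27b against the siRNC liver (top) and the saline against the naive liver (bottom), with the 10 members as triangles and dashed lines at 2-fold. All triangles lie right of 0 in both panels, and 4 lie past 2-fold at the top (Serpina3n, Lbp, Orm1 and Lcn2) and 3 at the bottom (Lbp, Orm1 and Lcn2).

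Other positive acute phase genes were measured alongside, and 21 of a list of 27 passed the filter. In the miR-27b liver 20 of the 21 exceeded the siRNC liver (against 50.5% of kept genes), with a median of 0.51. In this comparison 2 (Il1rn and Steap4) were at least 2-fold higher (against 2.94% of kept genes) and 1 (Hamp) lower (against 2.38%). Against the naive liver 12 of 21 were at least 2-fold higher in the miR-27b liver (against 8.35% of kept genes), 4 in the siRNC liver (against 6.08%) and 4 in the saline liver (against 5.89%). At least 2-fold lower than in the naive liver were 1 in the miR-27b liver (Hamp, against 3.87% of kept genes), 2 in the siRNC liver (Hamp and Mbl2, against 3.51%) and 1 in the saline liver (Mbl2, against 3.84%). Mbl2, a mannose-binding lectin that activates complement, was at -1.17 in the siRNC and -1.16 in the saline liver against the naive liver. Haptoglobin (Hp), which captures free haemoglobin, and haemopexin (Hpx), which captures haem, were both 0.61 above the siRNC liver in the miR-27b liver, and Fgb, a fibrinogen chain, was 0.71 above it. Complement C3 was 0.41 above it. In the same comparison the members Cp, Crp and Itih4 were at 0.61, 0.55 and 0.54.

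A few genes of that list behaved differently. Il1rn, the IL-1 receptor antagonist, was 2.48 higher in the miR-27b than in the siRNC liver and 0.71 higher in the saline than in the naive liver. A2m was 0.57 higher in the miR-27b than in the siRNC liver, but 1.27 higher in the siRNC than in the saline liver. Hamp, the iron hormone hepcidin, was lower in the miR-27b liver, with log2 differences of -4.16 from the siRNC and -5.41 from the naive liver. The metallothioneins Mt1a and Mt2A exceeded the naive liver by 2.58 and 3.95 in the saline liver, yet differed by -0.17 and -0.13 between the miR-27b and saline livers.

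Of 15 negative acute phase genes that passed the filter, none was at least 2-fold apart between the miR-27b and siRNC livers, against 5.32% of kept genes, and their median was -0.01. In the saline against the naive liver 1 was at least 2-fold higher (against 5.89%) and 1 lower (against 3.84%), with a median of -0.10, so that the share past 2-fold was near that of all kept genes. Albumin (Alb) differed by 0.16 between the miR-27b and siRNC livers and by -0.05 between the saline and naive livers. Transthyretin (Ttr), the thyroid hormone carrier, differed by -0.21 and -0.44 in these comparisons. The genes past 2-fold in the saline liver were Serpina7, thyroxine-binding globulin, at 2.17, and Apoa4, an apolipoprotein, at -1.30.

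Among 28 measured genes of acute phase signalling, 5 were at least 2-fold higher (against 2.94% of kept genes) and 1, Foxa2, lower (against 2.38%) in the miR-27b than in the siRNC liver, with a median of 0.20. Those higher were Stat3 at 1.03, its feedback inhibitor Socs3 at 1.85, Bcl3, a partner of NF-kB, at 2.33, Nfkbiz, another such partner, at 1.07 and the AP-1 member Junb at 1.04. The IL-6 receptor chains Il6r and Il6st were at 0.54 and 0.15, and the factors Cebpb and Cebpd at 0.10 and 0.66. In the saline against the naive liver, 5 of the 28 were at least 2-fold higher (against 5.89% of kept genes) and 1, Nfkbia, lower (against 3.84%), with the oncostatin M receptor Osmr at 3.14, the IL-1 receptor Il1r1 at 2.21, Socs3 at 2.05 and Stat3 at 1.29. Between the siRNC and saline livers 1 of the 28, Nfkbiz, was at least 2-fold higher, at 1.28 (against 2.40% of kept genes), and 2, Socs3 and Bcl3, were lower, at -1.19 and -1.41 (against 1.77%). Stat3 was at -0.67 there and Junb at 0.05. Of the 28, 12 were above 0, near the share of all kept genes, of which 50.8% were below 0.

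Markers of cell types were compared between the livers, which does not test the tissue label, as levels of different genes cannot be compared. All 15 hepatocyte markers passed the filter, and none was 2-fold apart in any of the 6 comparisons. Of kept genes, 5.32%, 4.48% and 12.2% were 2-fold apart for the miR-27b against the siRNC, saline and naive livers, 4.17% and 9.59% for the siRNC against the saline and naive livers, and 9.74% for the saline against the naive liver. The hepatocyte markers had a median of 0.16 between the miR-27b and siRNC livers and of 0.08 between the saline and naive livers. Of 15 macrophage and Kupffer cell markers, 13 passed. Between the miR-27b and siRNC livers 0 of the 13 were past 2-fold, with a median of 0.38. Against the naive liver the macrophage markers had medians of 1.48, 1.02 and 1.28 in the miR-27b, siRNC and saline livers. In the miR-27b liver 12 of 13 were at least 2-fold higher (against 8.35% of kept genes). In the siRNC and saline livers 8 and 12 were (against 6.08% and 5.89%). Among these were Marco at 2.65, 2.01 and 2.50, Cd68 at 2.09, 1.61 and 1.51, Cd163 at 1.79, 1.26 and 1.96, and Cd5l at 1.56, 1.30 and 1.57 in the same livers. Timd4 was listed at 0 in all libraries. Of 6 cholangiocyte markers 2 passed, and Krt7 and Sox9 were listed at 0. Krt19, a keratin of bile ducts, was higher by 1.39 in the miR-27b than in the siRNC liver and by 1.98 in the saline than in the naive liver, and Epcam, the other that passed, by 0.11 and 0.99. The Krt19 differences rest on few recovered reads: 14.99, 6, 20.99 and 5 in the miR-27b, siRNC, saline and naive libraries. Their counting error is therefore large. The macrophage markers thus moved with the acute phase genes against the naive liver, and their part in those differences was not tested.

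The genes whose pattern over the 4 libraries was closest to that of Orm1, by Euclidean distance of values centred on each gene's mean, were the kininogen Kng2 (distance 0.21), Hmox1 (0.31), Anxa1 (0.36), Mest (0.37) and Slc1a5 (0.45). Closest to Lbp were Cyp2c7 (0.08), Acot5 (0.10), Cd244 (0.11), Prg4 (0.18) and Pla2g2d (0.21). Closest to Lcn2 were Il2rg (1.70), Hk2 (1.87), Pcolce (1.87), Igfbp1 (1.92) and Slc13a5 (1.93). Only kept genes with a named symbol, outside the members, were searched. Distances were not scaled and Lcn2 had the widest range of the members (5.44), so its distances cannot be set against those of Orm1 and Lbp. The measure rests on 4 libraries and takes no account of counting error. A kept gene can lie at a log2 level of 4, where a log2 difference has a counting SD of 0.51. This exceeds every distance listed for Orm1 and Lbp.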

How the data were processed

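Poly(A) RNA from the livers of 4 rats was made into TruSeq libraries and read on an Illumina MiSeq, per the labels, with 1 library per group. Per the submitters' processing notes, DESeq (no version) and the rat build rn5 were used. Aligner and read counter: not given in the sources used here. In its header, the deposited table calls its values normalized. Since both signs occur in a narrow range, they were read as log2 values relative to 1 baseline per gene, with a floor at 1 normalized read. Of 31457 genes, 18583 were at 0 in all libraries.

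Genes above 0 in a single library share a few exact values, which gave what 1 read is worth, and so size factors of 0.956, 1.01, 1.04 and 0.977 for the miR-27b, siRNC, saline and naive libraries. Read numbers up to 200 in the lowest library were searched in whole reads and small fixed fractions of a read, and were accepted at a posterior above 0.9 in 1839 genes. Elsewhere the binary rounding of the stored values gave a class, a log2 level of at least 4 or at least 8 (probability of 0.5 or more). A mean of at least 10 recovered normalized reads, or a log2 level of at least 4, was met by 9553 genes, which were kept. The table holds no library totals, so the depth is unknown. Both steps were tested on simulated data, where most but not all accepted read numbers and classes were right. The simulated baseline was the library next to the lowest. In the deposited values the 0 of Lcn2, Orm1, Lbp, Itih4 and Cp was in a higher library. Crp, Serpina3n, Apcs and Itih3 had no 0, and Saa4 alone matched the simulated setting. The simulation therefore does not cover the baselines of the members other than Saa4.

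Differences are those of the deposited log2 values with no pseudocount. Intervals for Lcn2 use reads rounded to whole numbers. All members are named, and from each other list up to 4 members with the largest differences among those 2-fold apart in the miR-27b against siRNC or saline against naive comparison, with some genes fixed by name; others (Cd14, Itih1, Mbl2, Serpina3k, Serpina3m, Steap4, Nfkbiz, Junb, Foxa2, Nfkbia and the neutrophil genes) and the promoter motifs were chosen after values were seen. The NF-kB pattern was also changed once, after its first result was seen, and both results are given. The members and lists were chosen with earlier results of these data known. Alternatives were scaling, a pseudocount of 5, other filters on low levels, a 1.5-fold threshold and the mean. Python 3.11.15, numpy 2.4.6, scipy 1.17.1 and matplotlib 3.10.9 were used.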

Additional observations from a re-analysis of the deposited data

How the results depend on the processing

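Of 120 differences of single members under another scaling or a pseudocount of 5, none reversed and 4 moved by 0.13 or more, all of Lcn2 with the pseudocount: 4.01 for the miR-27b against the siRNC liver, and 5.02, 1.01 and 1.92 for the miR-27b, siRNC and saline against the naive liver. The mean of the members in place of the median was 1.03, 0.83 and 1.81 for the miR-27b liver against the siRNC, saline and naive livers, with Lcn2 the most extreme member. At a 1.5-fold threshold 5 members were past it for the miR-27b against the saline liver, and 6 and 7 for the siRNC and saline against the naive liver. The share of all kept genes past 1.5-fold was not computed, so these counts cannot be set against a background. With the pseudocount, 0 members were 2-fold apart between the siRNC and saline livers, since Lcn2 then lay at -0.92. The share of all genes 2-fold apart depended most on the filter: without it the share was 11.6%, 10.2% and 18.8% for the miR-27b against the siRNC, saline and naive livers, 8.79% and 15.1% for the siRNC against the saline and naive livers, and 15.1% for the saline against the naive liver. With the pseudocount it was 3.17% and 2.45% for the miR-27b against the siRNC and saline livers, 2.43% and 5.73% for the siRNC against the saline and naive livers, and 6.47% for the saline against the naive liver. A stricter filter gave 2.98% for the miR-27b against the saline liver. No paired analysis was possible because each group holds 1 library. Depth limits Lcn2 most, at 14 reads in the naive library.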
